A study of Mus musculus with 10 samples.

Results

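Integrins and the proteins that tie them to actin were followed in 10 cell lines of the 4T1-hHER2 metastasis model. The group holds 32 genes of 55418 named genes in the deposited gene table: 13 integrin alpha subunits, 8 integrin beta subunits and 11 proteins of the focal adhesion. They were chosen by name, with the alpha subunit Itga1 left out. Of the 32, 29 passed the filter on low counts, as did 19936 named genes in all. Itga4, Itga9 and Itga11 did not pass.

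The parental library comes from 4T1-hHER2, mammary carcinoma cells of a BALB/cfC3H mouse into which a lentivirus brought stable human HER2 and luciferase. The other 9 lines came out of NOD-SCID-GAMMA (NSG) mice, which lack T, B and NK cells: primary 5, 7 and 8 from fat pad xenografts, CTC 1, 3 and 6 from circulating tumour cells, and metastasis 5, 3 and 7 from lung metastases. All 9 descend, per their labels, from circulating tumour cells of mice that bore 4T1-hHER2-Luc tumours, so the primary group had also passed through blood. Each line is 1 library of cultured cells, and no treatment, passage number or clonality is given, so every p-value rests on differences between single libraries of separate lines, some of which may be technical. Libraries held 79869760 to 97722716 estimated counts, of which 63275645 to 77476609 fell on named genes. CPM is scaled to the latter with TMM factors, and 3 counts correspond to at most 0.0465 CPM. Epithelial markers were present in each line, with Krt18 between 303 and 1462 CPM, while Krt5 was at 0 in all 10. The 9 leukocyte markers summed to at most 0.737 CPM in any line.

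An integrin is a pair of 1 alpha and 1 beta subunit that spans the membrane and binds the extracellular matrix or a receptor on another cell. Talins and kindlins bind the beta tail and switch the pair to its active state, and adaptors such as vinculin, paxillin and zyxin link it to actin, while the kinase FAK and the ILK, PINCH and parvin complex pass signals on. Mammary epithelium is known for laminin receptors such as alpha3 beta1 and alpha6 beta4 on its basal side.

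The 250 bases upstream of the annotated start (RefSeq, GRCm38.p6) are shown for 4 members, chosen by their levels or by a motif in the window. Itga2 and Itgb5 are the alpha and beta subunits at a mean of 5 CPM or more whose metastasis and primary lines did not overlap. Fermt2 and Vcl are the members at a mean of 5 CPM or more whose window holds a CArG box. Over the derived lines Fermt2 spanned 1.36-fold and Vcl 2.27-fold. The Fermt2 window stops at the GENCODE gene model, which begins 53 bases upstream of the RefSeq start, and so has 197 bases. Capitals mark an E-box (CACCTG on either strand) in Itgb5 and the CArG box, the element bound by serum response factor, in Fermt2 and Vcl. Itga2 held none of the 6 motifs searched and is all in lower case.
Itga2, chr13:114932101-114932350 (minus strand): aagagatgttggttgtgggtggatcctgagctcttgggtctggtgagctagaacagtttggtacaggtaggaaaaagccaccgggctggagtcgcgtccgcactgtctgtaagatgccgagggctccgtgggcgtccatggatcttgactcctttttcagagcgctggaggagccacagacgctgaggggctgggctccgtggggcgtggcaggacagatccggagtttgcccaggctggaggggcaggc
Itgb5, chr16:33829415-33829664 (plus strand): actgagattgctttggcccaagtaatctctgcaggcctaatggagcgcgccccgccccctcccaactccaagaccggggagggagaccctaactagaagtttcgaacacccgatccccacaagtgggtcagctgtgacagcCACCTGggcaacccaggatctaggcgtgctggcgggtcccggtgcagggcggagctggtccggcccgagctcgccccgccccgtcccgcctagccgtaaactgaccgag
Fermt2, chr14:45530119-45530315 (minus strand): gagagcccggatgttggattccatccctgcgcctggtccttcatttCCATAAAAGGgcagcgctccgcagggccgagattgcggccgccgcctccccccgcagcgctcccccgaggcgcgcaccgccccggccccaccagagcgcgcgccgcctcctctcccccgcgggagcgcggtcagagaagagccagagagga
Vcl, chr14:20929148-20929397 (plus strand): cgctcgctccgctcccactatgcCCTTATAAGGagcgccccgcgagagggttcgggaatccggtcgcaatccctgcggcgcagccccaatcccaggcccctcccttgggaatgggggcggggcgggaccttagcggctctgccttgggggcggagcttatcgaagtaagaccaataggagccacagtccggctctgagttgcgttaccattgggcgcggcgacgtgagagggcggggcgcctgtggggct

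Of the 32 members, 22 had a promoter entry, 27 entries in all. The CArG box was in 3 of the 27 entries (Vcl, Fermt2 and 1 of Itgb6) and in 1.5% of 32851 promoters of the same length. The E-box CACCTG was in 6 entries and in 17.2% of all promoters, and the AP-1 site TGANTCA in 1 entry (Zyx) and in 6.7%. GGAATG, bound by TEAD factors, was in 3 entries and in 12.6%, the GC box GGGCGG in 12 entries and in 32.7%, and the ETS site CCGGAAG in 3 entries and in 6.9%. Both strands were searched, and no other searched motif overlapped the capitals. A match is a description of letters, not a site.

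On GRCm38, Itga2 (ENSMUSG00000015533.9) spans chromosome 13 from 114833081 to 114932100 on the minus strand and Itgb5 (ENSMUSG00000022817.15) chromosome 16 from 33829665 to 33949338 on the plus strand. Itgb6 (ENSMUSG00000026971.15) lies on chromosome 2 from 60598292 to 60722643, Itgb2 (ENSMUSG00000000290.13) on chromosome 10 from 77530252 to 77565708 and Itgb7 (ENSMUSG00000001281.10) on chromosome 15 from 102215995 to 102231944. All 5 are protein-coding, and no annotated gene shares exon bases with them.

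Per transcript length and with all transcripts of a gene summed, Itgb1 had the highest median of the members, at 706 TPM over the 10 lines. Itga3 followed at 337 TPM and Zyx at 202 TPM. Ilk (144 TPM), Tln1 (129 TPM) and Itga6 (102 TPM) came next. Their ranges over the lines overlap, for Tln1 from 44.9 to 161 TPM and for Itga6 from 37.7 to 131 TPM, so this order does not hold in each line. In CTC 3, Itga3 exceeded Itgb1 (514 against 200 TPM). The Itgb1 level includes Itgb1-202, annotated as subject to nonsense-mediated decay, at 30.7% to 53% of its counts. The rank of coding Itgb1 alone was not computed. By median, Itgb5 (84.4 TPM) was the highest beta subunit after Itgb1, ahead of Itgb2 (30.9 TPM) and Itgb4 (28.4 TPM). Itgb2 ranged from 0.48 to 165 TPM and Itgb4 from 6.09 to 83.1 TPM, so these 2 changed places between lines. Itgb2 also exceeded Itgb5 in CTC 1 (131 against 41.5 TPM), CTC 3 (165 against 86.6 TPM) and metastasis 3 (122 against 114 TPM). Levels below are CPM, which compare lines for a gene and not genes with each other.

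**Figure D1:**
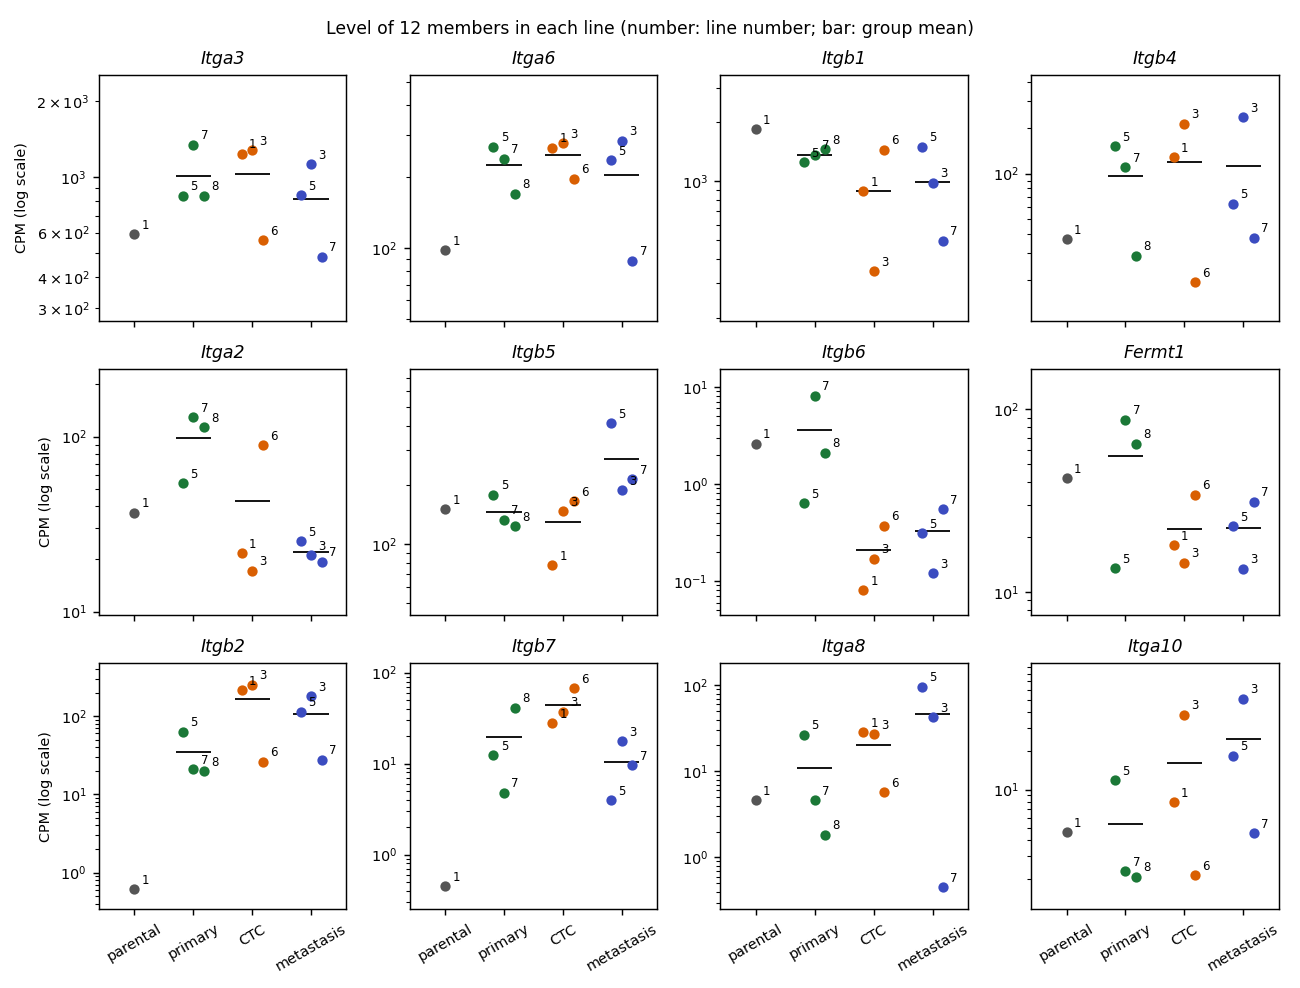
Level of 12 members in each line, in CPM on a log axis that differs between panels, with 1 point per line marked by its number, 1 colour per group and a bar at the group mean. The 3 metastasis lines lie below the 3 primary lines for Itga2 and above them for Itgb5, while for Itga8 they run from 0.45 to 95.8 CPM.

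The laminin receptors were led by Itga3, the partner of beta1, and Itga6, the partner of beta1 and beta4. Itga3 was at 592 CPM in the parental line, 840.1, 1342 and 841 CPM in primary 5, 7 and 8, 1235, 1279 and 559.8 CPM in CTC 1, 3 and 6, and 846, 1125 and 481 CPM in metastasis 5, 3 and 7. Itga6 was at 97.8 CPM in the parental line, 268, 238 and 169 CPM in primary 5, 7 and 8, 264, 276 and 196 CPM in CTC 1, 3 and 6, and 234, 284 and 88.5 CPM in metastasis 5, 3 and 7. Both were lowest among derived lines in metastasis 7, and the 3 derived groups overlapped. The muscle-type laminin receptor subunit Itga7 was at 9.28 CPM in the parental line, 7.5, 14.6 and 9.72 CPM in primary 5, 7 and 8, 6.8, 7.37 and 10.6 CPM in CTC 1, 3 and 6, and 9.64, 6.72 and 4.93 CPM in metastasis 5, 3 and 7. Itgb4, the beta subunit of hemidesmosomes, was at 37.2 CPM in the parental line, 150.5, 110.1 and 28.8 CPM in primary 5, 7 and 8, 128, 212 and 19.4 CPM in CTC 1, 3 and 6, and 63.6, 235 and 37.9 CPM in metastasis 5, 3 and 7. Metastasis 3, CTC 3 and primary 5 were highest for Itgb4, and primary 8, CTC 6 and metastasis 7 were lowest, so each derived group held high and low lines. Itgb4 spanned 12.1-fold from CTC 6 to metastasis 3, against 3.21-fold for its partner Itga6 over the derived lines.

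Itgb1, the shared beta subunit of most matrix receptors, was at 1850 CPM in the parental line, 1254, 1367 and 1459 CPM in primary 5, 7 and 8, 890.2, 346 and 1451 CPM in CTC 1, 3 and 6, and 1498, 984 and 495 CPM in metastasis 5, 3 and 7. The parental line was above all 9 derived lines, and CTC 3 was the lowest. The derived lines were lower than parental by a log2 change of -0.80 (SE 0.61, 1 parental library), which did not pass (edgeR adjusted p = 0.588).

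Among the collagen receptors, Itga2 was lower in each lung line than in any fat pad line, and the difference did not pass the test. Itga2, which pairs with beta1 as the main epithelial collagen receptor, was at 36.7 CPM in the parental line, 54.2, 129 and 113 CPM in primary 5, 7 and 8, 21.5, 17.2 and 89.2 CPM in CTC 1, 3 and 6, and 25.3, 21 and 19.3 CPM in metastasis 5, 3 and 7. All 3 metastasis lines lay below all 3 primary lines, at 21.9 ± 3.07 CPM (SD, n = 3) against 98.8 ± 39.4 CPM (SD, n = 3), while CTC 6 lay within the primary range and CTC 1 and 3 below it. The log2 change was -2.18 (SE 0.63), with an unadjusted p of 0.00701 and an edgeR adjusted p of 0.594 over all genes. Across 19 alternatives it stayed between -2.47 and -1.91. Itga10, a collagen receptor subunit of cartilage, was at 4.66 CPM in the parental line, 11.8, 2.3 and 2.09 CPM in primary 5, 7 and 8, 8, 38.4 and 2.15 CPM in CTC 1, 3 and 6, and 18.4, 51.2 and 4.57 CPM in metastasis 5, 3 and 7. It was highest in metastasis 3 and CTC 3, the groups overlapped (log2 change 2.19 for metastasis minus primary, SE 1.20, edgeR adjusted p = 0.601), and 33.5% of its exon bases are shared with Gm42957 on the same strand, so its counts are uncertain. Itga11 did not exceed 0.12 CPM.

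Among subunits that recognise the RGD motif, Itga5, the fibronectin receptor, was at 74.9 CPM in the parental line, 60.3, 67.6 and 76.5 CPM in primary 5, 7 and 8, 29.5, 51.2 and 53.9 CPM in CTC 1, 3 and 6, and 85.2, 45.3 and 49.9 CPM in metastasis 5, 3 and 7. The 3 CTC lines lay below the 3 primary lines, with a log2 change of -0.60 (SE 0.33, edgeR adjusted p = 0.994). Itgav, which pairs with beta1, beta3, beta5, beta6 and beta8, was at 70.6 CPM in the parental line, 82, 288 and 213 CPM in primary 5, 7 and 8, 215, 90.7 and 187 CPM in CTC 1, 3 and 6, and 252, 63.9 and 62.4 CPM in metastasis 5, 3 and 7. Primary 7 and metastasis 5 were highest and metastasis 7 and 3 lowest for Itgav, within a 4.61-fold range. Itga8, the nephronectin receptor of mesenchymal cells, was at 4.6 CPM in the parental line, 26.7, 4.63 and 1.84 CPM in primary 5, 7 and 8, 28.6, 26.9 and 5.69 CPM in CTC 1, 3 and 6, and 95.8, 42.5 and 0.45 CPM in metastasis 5, 3 and 7. It had the widest range of the members at a mean of 5 CPM or more, 213-fold between 2 lines of the metastasis group, from 33 counts in metastasis 7 to 7366 counts in metastasis 5.

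Itga2b, the platelet fibrinogen receptor subunit, was at 2.88 CPM in the parental line, 1.8, 1.95 and 0.96 CPM in primary 5, 7 and 8, 1.4, 2.06 and 1.02 CPM in CTC 1, 3 and 6, and 2.88, 2.08 and 6.94 CPM in metastasis 5, 3 and 7. Metastasis lines lay above primary lines by a log2 change of 1.34 (SE 0.56, unadjusted p = 0.0391, edgeR adjusted p = 0.594), and the change was 0.66 without metastasis 7. They also lay above the CTC lines, by 1.41 (SE 0.56, unadjusted p = 0.032, edgeR adjusted p = 1), by 0.73 without metastasis 7, and by 0.00 with the line number as a fixed block. That block value, like the others for metastasis against CTC, rests on CTC 3 and metastasis 3 alone, the only such lines with a shared number. The 7 platelet markers summed to 0.591 to 1.37 CPM in primary, 0.762 to 1.05 CPM in CTC and 1.17 to 1.47 CPM in metastasis lines, with 6 of the 7 under 1 CPM in every line. Their part in the Itga2b values was not tested.

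Of the beta subunits that pair with alphav, Itgb5, a vitronectin receptor subunit, was the most abundant per length after Itgb1. Itgb5 was at 150.1 CPM in the parental line, 178, 133 and 123 CPM in primary 5, 7 and 8, 78, 147 and 165 CPM in CTC 1, 3 and 6, and 412, 188 and 214 CPM in metastasis 5, 3 and 7. The metastasis lines, at 271 ± 123 CPM (SD, n = 3), lay above every primary line (145 ± 29.5 CPM, SD, n = 3) and every CTC line (130.1 ± 46 CPM, SD, n = 3). The log2 change was 0.90 against primary (SE 0.39, unadjusted p = 0.0437, edgeR adjusted p = 0.594) and 1.06 against CTC (SE 0.39, unadjusted p = 0.0228, edgeR adjusted p = 1). Metastasis 5 weighed on both, since without it they were 0.47 and 0.63, and the second was 0.33 with the line number as a fixed block.

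Itgb6, the epithelial beta subunit that activates TGF-beta with alphav, was at 2.61 CPM in the parental line, 0.63, 8.09 and 2.1 CPM in primary 5, 7 and 8, 0.08, 0.17 and 0.37 CPM in CTC 1, 3 and 6, and 0.31, 0.12 and 0.55 CPM in metastasis 5, 3 and 7. All 3 primary lines lay above all 6 CTC and metastasis lines, with 615 counts in primary 7 and between 6 and 40 counts in each of the 6. The margin was small, with 45 counts in primary 5 against 40 in metastasis 7. The log2 change was -4.13 for CTC minus primary (SE 1.06, unadjusted p = 0.00352, edgeR adjusted p = 0.994). It was -3.47 for metastasis minus primary (SE 1.02, unadjusted p = 0.00777, edgeR adjusted p = 0.594). Without primary 7 these were -2.72 and -2.05, and the CTC value was -1.94 with the line number as a fixed block, which reaches primary lines only through metastasis 3, 5 and 7. Itgb6 was the member that DESeq2 called in both comparisons, with an adjusted p of 0.0109 against CTC and 0.0341 against metastasis. Of the 8 epithelial markers, 4 were also highest in primary 7, at 627 CPM for Cdh1, 203.5 CPM for Epcam, 1177 CPM for Krt7 and 78.4 CPM for Krt14. Krt8 was highest in metastasis 3 (1232 CPM, against 147 CPM in primary 7), Krt18 in CTC 1 (1462 against 1077 CPM) and Krt19 in primary 8 (262 against 121.5 CPM), and Krt5 was at 0. The summed list was 1207 CPM in parental, 2072 to 3471 CPM in primary, 1499.5 to 2666 CPM in CTC and 1206 to 2905 CPM in metastasis lines. Their part in the Itgb6 values was not tested.

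Itgb3, the partner of alphav and alphaIIb, was at 0.06 CPM in the parental line, 7.49, 1.63 and 0.63 CPM in primary 5, 7 and 8, 3.61, 9.24 and 0.63 CPM in CTC 1, 3 and 6, and 12.7, 9.79 and 0.79 CPM in metastasis 5, 3 and 7. The parental line held 4 counts and each derived line at least 41. Itgb8, a TGF-beta activating subunit, lay between 0.06 and 4.24 CPM over all lines.

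Itgb2, the beta subunit of leukocyte integrins, set the derived lines apart from the parental line most widely. Itgb2 was at 0.61 CPM in the parental line, 63, 21.1 and 19.7 CPM in primary 5, 7 and 8, 214, 252 and 26 CPM in CTC 1, 3 and 6, and 114, 178 and 27.5 CPM in metastasis 5, 3 and 7. In bulk RNA, a level cannot tell fewer cells with the gene from less RNA per cell. All 9 derived lines exceeded parental, which held 43 counts, and CTC 3, CTC 1 and metastasis 3 were highest. The log2 change of derived against parental was 7.11 (SE 1.9, 1 parental library, unadjusted p = 0.00445), with an edgeR adjusted p of 0.451 and an adjusted p of 1.98e-07 by DESeq2. Between CTC and primary lines it was 2.24 (SE 0.91, unadjusted p = 0.0354, edgeR adjusted p = 0.994) and 1.14 with the line number as a fixed block, and the 2 groups overlapped.

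The alpha partners of beta2 were near the floor. Itgal, Itgam, Itgax and Itgad, which are no members, summed to between 0 and 0.747 CPM in a line. Ptprc, the common leukocyte antigen, was at most 0.23 CPM, and all 9 leukocyte markers were under 1 CPM in every line. One transcript, Itgb2-201, held between 88.4% and 98.7% of the Itgb2 counts of each line.

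Itgb7, the beta subunit of gut-homing lymphocytes, was at 0.45 CPM in the parental line, 12.4, 4.8 and 41.2 CPM in primary 5, 7 and 8, 27.9, 37.3 and 67.5 CPM in CTC 1, 3 and 6, and 3.94, 17.8 and 9.6 CPM in metastasis 5, 3 and 7. Its alpha partners Itga4 and Itgae summed to 0.17 to 0.503 CPM, with Itga4 at 0 counts in all 10 libraries and Itgae between 0.17 and 0.5 CPM. Derived lines exceeded parental by a log2 change of 5.51 (SE 1.55, unadjusted p = 0.00607, edgeR adjusted p = 0.451, DESeq2 adjusted p = 3.55e-05). Metastasis lines lay below all CTC lines by a log2 change of -2.08 (SE 0.81, unadjusted p = 0.0294, edgeR adjusted p = 1), which was -1.09 with the line number as a fixed block. Itga9, the partner of beta1 in tenascin binding, did not exceed 0.1 CPM.

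**Figure D2:**
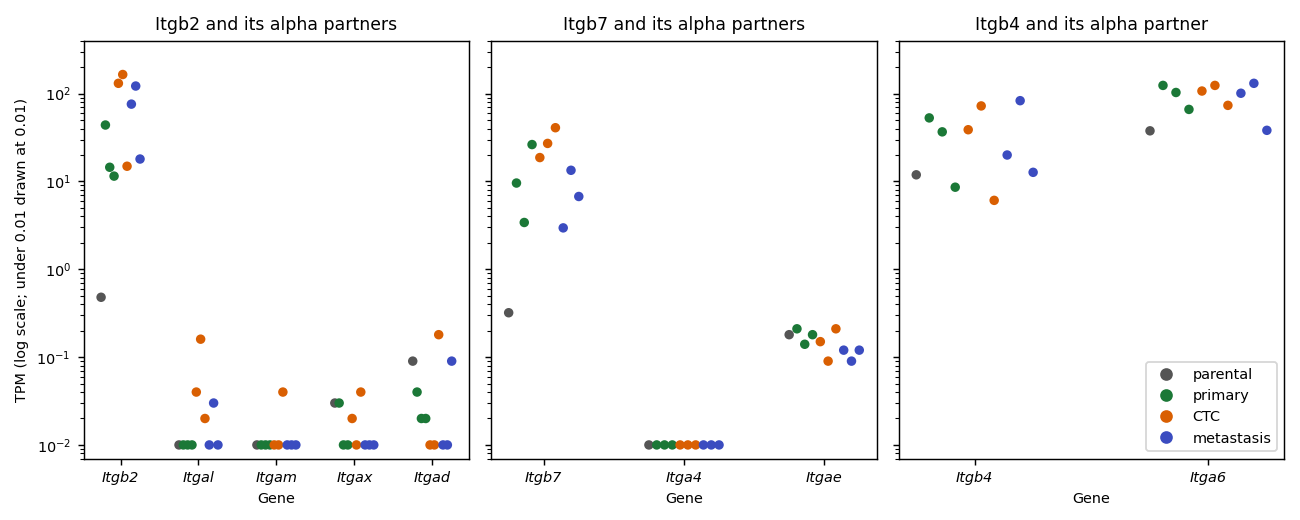
Level in each line of Itgb2, Itgb7 and Itgb4 beside the alpha subunits they pair with, in TPM on a log axis with values under 0.01 drawn at 0.01, with 1 point per line coloured by group. Itgb2 lies at 11.5 to 165 TPM in the derived lines and none of its alpha partners exceeds 0.18 TPM, while Itga6, the partner of Itgb4, lies at 37.7 TPM or more in every line.

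The integrin activators differed in how far they varied. Tln1, the main talin, was at 242 CPM in the parental line, 546, 454 and 648 CPM in primary 5, 7 and 8, 664, 696 and 409.9 CPM in CTC 1, 3 and 6, and 565, 572 and 194 CPM in metastasis 5, 3 and 7. Parental and metastasis 7 were lowest for Tln1. The second talin, Tln2, was at 2.89 CPM in the parental line, 6.16, 7.37 and 6.24 CPM in primary 5, 7 and 8, 5.51, 1.13 and 2.39 CPM in CTC 1, 3 and 6, and 5.86, 1.32 and 1.4 CPM in metastasis 5, 3 and 7. All 3 primary lines lay above all CTC and all metastasis lines for Tln2, by log2 changes of -1.13 (SE 0.72) for CTC and -1.20 (SE 0.72) for metastasis minus primary, at edgeR adjusted p of 0.994 and 0.626. Fermt1, the epithelial kindlin, was at 42.1 CPM in the parental line, 13.5, 87.9 and 64.7 CPM in primary 5, 7 and 8, 18.1, 14.4 and 34 CPM in CTC 1, 3 and 6, and 22.9, 13.4 and 31.2 CPM in metastasis 5, 3 and 7. Primary 7 and 8 were highest for Fermt1 among derived lines, and primary 5 was as low as metastasis 3 and CTC 3. Fermt2, the widely expressed kindlin, was at 149 CPM in the parental line, 131, 118 and 152 CPM in primary 5, 7 and 8, 142, 135 and 137 CPM in CTC 1, 3 and 6, and 111, 121 and 119.6 CPM in metastasis 5, 3 and 7. Its highest derived line was 1.36-fold above its lowest, with a log2 SD of 0.144, and 99.2% of the 10467 genes at a mean of 5 CPM or more had a larger SD.

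The kinase Ptk2, which encodes FAK, was at 131 CPM in the parental line, 125, 136 and 172 CPM in primary 5, 7 and 8, 152, 165 and 123 CPM in CTC 1, 3 and 6, and 132, 156 and 144 CPM in metastasis 5, 3 and 7. It was close to Fermt2 in evenness, with 97.7% of the 10467 genes more variable. Ilk, the pseudokinase at the centre of its complex, was at 131 CPM in the parental line, 139.5, 162 and 148 CPM in primary 5, 7 and 8, 153, 136 and 141 CPM in CTC 1, 3 and 6, and 135, 115 and 89.7 CPM in metastasis 5, 3 and 7. All 3 metastasis lines lay below all primary and all CTC lines for Ilk, by log2 changes of -0.41 (SE 0.22) and -0.34 (SE 0.22) at edgeR adjusted p of 0.603 and 1. Taf10 and Rrp8 on the other strand overlap Ilk, 1 of them over 76.7% of its exon bases, so its counts are uncertain without strand.

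Lims1, which encodes PINCH1, was at 394 CPM in the parental line, 186, 174 and 241 CPM in primary 5, 7 and 8, 236, 157 and 315 CPM in CTC 1, 3 and 6, and 156, 138 and 242 CPM in metastasis 5, 3 and 7. The parental line was above all 9 derived lines, by a log2 change of -0.95 for derived minus parental (SE 0.38, unadjusted p = 0.0346, edgeR adjusted p = 0.482). Parva, the actin-binding parvin, was at 95.2 CPM in the parental line, 157, 187 and 104 CPM in primary 5, 7 and 8, 236, 177 and 95.1 CPM in CTC 1, 3 and 6, and 239, 169.9 and 100.5 CPM in metastasis 5, 3 and 7. Metastasis 5 and CTC 1 were highest for Parva and each derived group held a line at or under 104 CPM.

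Vinculin, Vcl, which strengthens the link to actin under load, was at 105 CPM in the parental line, 123, 238 and 166 CPM in primary 5, 7 and 8, 139, 156 and 105 CPM in CTC 1, 3 and 6, and 149, 105 and 147 CPM in metastasis 5, 3 and 7. All 9 derived lines lay above parental for Vcl, by 0.48 in log2 (SE 0.41, edgeR adjusted p = 0.612), and 25.5% of its exon bases are shared with Ap3m1 on the other strand. Metastasis 3 (104.9 CPM) and CTC 6 (105.3 CPM) were barely above parental (104.6 CPM). Paxillin, Pxn, a docking protein for FAK, was at 131 CPM in the parental line, 281, 174 and 97 CPM in primary 5, 7 and 8, 109.8, 95.5 and 332 CPM in CTC 1, 3 and 6, and 103, 110.3 and 229 CPM in metastasis 5, 3 and 7. CTC 6, primary 5 and metastasis 7 were highest for Pxn, 1 line from each derived group, with all transcripts summed. Pxn-203, a processed transcript, held 16.6%, 30.5% and 25.5% of Pxn counts in these lines, against 2.11% in primary 7. Pxn-210, a retained intron, held 8.06% to 43.6% over all lines. The order of the lines for Pxn need not hold for its coding transcripts. Zyxin, Zyx, an adaptor of actin repair, was at 118 CPM in the parental line, 221, 292 and 311 CPM in primary 5, 7 and 8, 272, 369 and 215 CPM in CTC 1, 3 and 6, and 279, 424 and 144 CPM in metastasis 5, 3 and 7. All 9 derived lines exceeded parental for Zyx, by a log2 change of 1.24 (SE 0.56, unadjusted p = 0.052, edgeR adjusted p = 0.484).

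**Figure D3:**
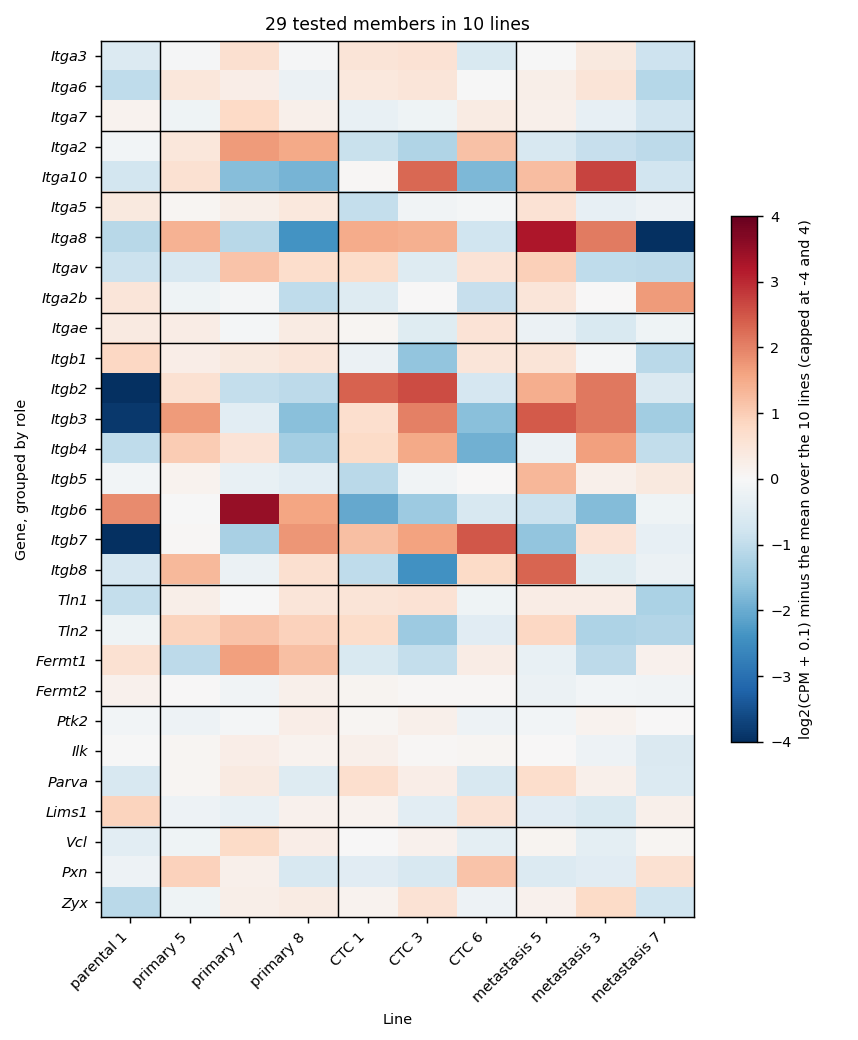
Level of the 29 tested members in each line, as log2(CPM + 0.1) minus its mean over the 10 lines, with the colour scale capped at -4 and 4 and members grouped by role. Itgb2, Itgb3 and Itgb7 are far below their means in the parental line, Itga8 spans the scale within the metastasis group, and Fermt2, Ptk2 and Ilk stay pale.

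In metastasis against primary lines, no member passed an adjusted p of 0.05 in edgeR, and neither did any of the 19936 genes (0%). At an unadjusted p under 0.05 the members were Itga2b and Itgb5 above, and Itga2 and Itgb6 below, in metastasis lines. That is 4 of 29 tested (13.8%), against 8.29% of all tested genes. Limma-voom called 0 members, with 3 at an unadjusted p under 0.05, and DESeq2 called 1, Itgb6. The groups did not overlap for 7 members, against 13.6% of all genes: Itga2b and Itgb5 higher, and Itga2, Itgae, Itgb6, Tln2 and Ilk lower. The median log2 change was -0.19 over the members and 0.01 over all genes. The 4 fell to 2 without primary 7 and to 2 without primary 8.

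In CTC against primary lines edgeR again called 0 of 29 members and 0% of all genes. At an unadjusted p under 0.05, Itgb2 was higher and Itgb6 lower in CTC lines. These are 6.9% of the tested members, against 4.06% of all genes. Limma-voom called 0 members, with 2 at an unadjusted p under 0.05, and DESeq2 called Itgb6. Groups that did not overlap were found for Itga5, Itgb6 and Tln2, all lower, against 7.15% of all genes (4.02% lower). The median log2 change was -0.04 over members and -0.01 over all genes. The 2 members became 4 without primary 5, 4 without CTC 6, 1 without primary 7 and 1 without CTC 3.

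In metastasis against CTC lines no member was called by edgeR, DESeq2 or limma-voom, and edgeR called 1 gene of all (0.00502%). At an unadjusted p under 0.05, Itgb5 and Itga2b were higher and Itgb7 lower in metastasis lines, 10.3% of tested members against 3.29% of all genes. DESeq2 and limma-voom each had 3 members at that threshold. The groups did not overlap for 5 members, against 8.28% of all genes: the same 3 with Fermt2 and Ilk lower. The median log2 change was -0.07 over members and 0 over all genes. Without CTC 1, or without metastasis 7, 1 member was left at an unadjusted p under 0.05. These 3 comparisons share lines, so the same values of Itgb5, Itga2b, Itgb6 and Ilk enter more than 1 of them. A joint test of any difference among the 3 derived groups called 0 members in edgeR (0% of all genes), with Itgb6, Itga2, Itgb5 and Itga2b at an unadjusted p under 0.05, against 5.2% of all genes. DESeq2 called 1 member there, Itgb6, and limma-voom 0, with 6 and 4 members at an unadjusted p under 0.05. The 4 fell to 2 when primary 7, primary 8, CTC 1 or metastasis 7 was left out.

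**Figure D4:**
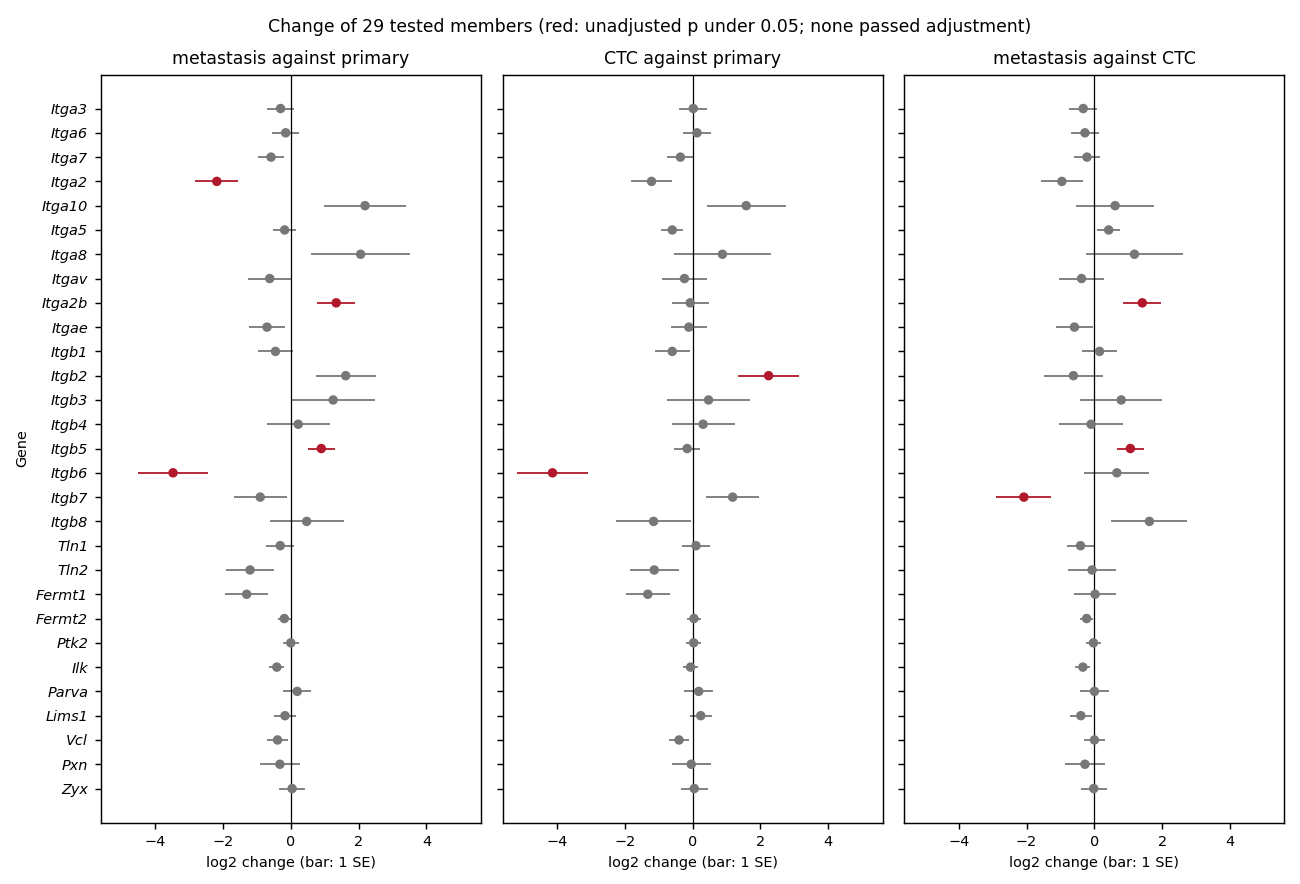
Log2 change of the 29 tested members between each pair of derived groups, with bars of 1 SE from edgeR and red for an unadjusted p under 0.05. Itgb6 lies lowest for metastasis against primary (-3.47) and CTC against primary (-4.13), Itgb7 lowest for metastasis against CTC (-2.08), and the plaque and kinase genes lie near 0 in all 3 panels.

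In derived against parental lines edgeR called 0 members and 0.0201% of all genes. At an unadjusted p under 0.05, Itgb2, Itgb7 and Itgb3 were higher and Lims1 lower, 13.8% of the tested members against 10.3% of all genes. Itgb3 had a log2 change of 6.37 (SE 2.58, unadjusted p = 0.035, edgeR adjusted p = 0.482), which rests on the 4 parental counts. DESeq2 called Itgb2, Itgb3 and Itgb7, and limma-voom called 0, with 6 and 3 members at an unadjusted p under 0.05. Parental lay outside the derived range for 7 members, against 29.5% of all genes: Itgb2, Itgb3, Itgb7, Vcl and Zyx below it and Itgb1 and Lims1 above it. For Vcl the margin was slight, at 104.6 CPM in parental against 104.9 CPM in metastasis 3. The median log2 change was 0.41 over the members and 0.10 over all genes. Leaving out metastasis 7 took the 4 members to 7.

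Some integrin subunits varied widely among the 9 derived lines, within as well as between the groups, while other members varied little. Of 23 members at a mean of 5 CPM or more, 5 ranged at least 10-fold (Itga8, Itga10, Itgb2, Itgb4 and Itgb7), that is 21.7% against 8.75% of the 10467 genes at that level. The median log2 SD of the 23 members was 0.57, against 0.472 over those genes. Over the 29 tested members it was 0.712, against 0.663 over all tested genes. At the even end, 99.2%, 97.7% and 87.3% of the 10467 genes had a larger SD than Fermt2, Ptk2 and Ilk. Primary 7 was the highest line for 7 of the 23 members and metastasis 7 the lowest for 8 and the highest for 0. Such counts were not made over all genes, so they do not set the members apart from other genes.

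The same 5 lines, primary 5, CTC 1, CTC 3, metastasis 5 and metastasis 3, were the highest derived lines for Itga8, Itga10, Itgb2 and Itgb3. This set of lines was read from Itga8 after its values were seen. The 4 genes are 13.8% of tested members, Itga8 included, and 9.88% of all tested genes have the same 5 highest lines. Fermt1 had these 5 lines as its lowest, as do 7.74% of all tested genes. Pdgfra, on the fibroblast and smooth muscle list, was at 4.45 CPM in the parental line, 58.1, 4.84 and 4.05 CPM in primary 5, 7 and 8, 72.3, 141 and 10.1 CPM in CTC 1, 3 and 6, and 269, 126 and 11.3 CPM in metastasis 5, 3 and 7, and the same 5 lines were its highest. Of the 9 markers on that list, 4 were under 1 CPM in every line. Col1a1 reached 2.32 CPM in primary 7 and Col1a2 1.2 CPM in metastasis 7. Dcn had the same 5 highest lines as Pdgfra, at 2.22 CPM in primary 5 and 1.59 and 0.85 CPM in CTC 1 and 3. For Dcn, metastasis 5 and 3 held 12.4 and 3.68 CPM, against at most 0.61 CPM in the other derived lines. Pdgfrb reached 15.35 CPM in primary 5 and 18.74 CPM in metastasis 5, and was at 0 in CTC 3 and metastasis 3. The summed list was 5.98 CPM in parental, 5.17 to 77.4 CPM in primary, 11.2 to 142 CPM in CTC and 16.8 to 303 CPM in metastasis lines. The epithelial markers did not move as 1 list. Cdh1 was lowest in those 5 lines, between 77.3 and 107 CPM, against 150.2 to 627 CPM in the other derived lines, while Krt18 was highest in them, between 1157 and 1462 CPM, against 303 to 1077 CPM. Krt8 was highest in metastasis 3 and CTC 3, at 1232 and 901 CPM, and lowest in metastasis 5, at 114 CPM. The part of these markers in the member values was not tested.

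Other genes of the pathway, taken from lists by role, gave 0 calls in edgeR in each of these comparisons. Of 21 further adaptors and actin linkers, 1 was lower at an unadjusted p under 0.05 in metastasis than in primary lines (4.76%, against 4.92% of all genes). It was Pdlim7 (-1.05, SE 0.36, unadjusted p = 0.0159, edgeR adjusted p = 0.594). In CTC against primary lines 1 adaptor was lower (4.76%, against 2.54% of all genes). It was again Pdlim7, at -1.08 (SE 0.36, unadjusted p = 0.0141, edgeR adjusted p = 0.994), and both comparisons use the same primary lines. Tns3, a tensin, was the 1 adaptor higher in metastasis than in CTC lines (4.76%, against 1.6% of all genes), by 1.08 (SE 0.43, unadjusted p = 0.0329, edgeR adjusted p = 1). Against parental, 3 adaptors were higher and 1 lower at that threshold (19%, against 10.3% of all genes), with Vasp, an actin elongation factor, at 1.37 (SE 0.44, unadjusted p = 0.0127, edgeR adjusted p = 0.453, DESeq2 adjusted p = 0.0455).

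Of 25 signalling kinases, phosphatases and exchange factors, 0 were at an unadjusted p under 0.05 in any comparison between derived groups. Over all genes the shares were 8.29% in metastasis against primary, 4.06% in CTC against primary and 3.29% in metastasis against CTC lines. Against parental, 2 were at that threshold (1 higher, 1 lower), 8% against 10.3% of all genes. Ptpn12, a phosphatase of focal adhesions, was nearest in metastasis against primary, at -0.59 (SE 0.27, unadjusted p = 0.0587, edgeR adjusted p = 0.594), and at -0.38 without metastasis 7. Dock1, a Rac exchange factor, was the higher one against parental, by 1.62 (SE 0.63, unadjusted p = 0.0303, edgeR adjusted p = 0.482). Of 9 hemidesmosome and tetraspanin partners tested, 1 was at an unadjusted p under 0.05 in metastasis against primary (11.1%, against 8.29% of all genes). It was Dst, the plakin that anchors alpha6 beta4 to keratin, at -2.03 (SE 0.72, unadjusted p = 0.0198, edgeR adjusted p = 0.594). The Dst value was -3.24 without metastasis 7.

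Of 21 integrin ligands tested, 3 were lower in metastasis than in primary lines at an unadjusted p under 0.05 (14.3%, against 4.92% of all genes). Tnc, the tenascin bound by alpha9 and alphav integrins, was the first of them at -3.82 (SE 1.19, unadjusted p = 0.0107, edgeR adjusted p = 0.594, DESeq2 adjusted p = 0.0264). In CTC against primary lines 6 of 21 were lower (28.6%, against 2.54% of all genes) and 0 higher, with E-cadherin, Cdh1, the ligand of alphaE beta7, at -1.84 (SE 0.76, unadjusted p = 0.0386, edgeR adjusted p = 0.994). The Cdh1 value was -0.45 with the line number as a fixed block. Col1a1 and Col1a2, at a mean of 1.03 and 0.307 CPM over the 10 lines, were also among the 6. In metastasis against CTC lines 3 were higher (14.3%, against 1.6% of all genes). Fn1, the ligand of alpha5 beta1, was at 1.02 (SE 0.39, unadjusted p = 0.0283, edgeR adjusted p = 1), and at 0.65 without metastasis 5 or 0.61 with the line number as a fixed block. The others were Col1a1 and Col1a2, which reached at most 0.36 and 0.09 CPM in CTC lines. Spp1, the osteopontin bound by alphav and alpha8 integrins, was 6.04 higher in log2 in derived lines than in parental (SE 1.99, unadjusted p = 0.0139, edgeR adjusted p = 0.458, DESeq2 adjusted p = 0.000186).

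The transcripts of some members were used unevenly between lines. In the transcript table the members have 206 transcripts, of which 123 were tested, and edgeR called 0 in metastasis against primary lines (0% of all transcripts), with 9 at an unadjusted p under 0.05 (7.32%, against 6.92% of all). Transcripts of a gene share reads, so these shares are estimates. Zyx-201 held 66.7% of Zyx counts in primary 5, 65.5% in CTC 3, 61.9% in metastasis 3, 41.3% in metastasis 7 and 25.3% in metastasis 5, and 10.4% to 18.5% in the other 5 lines. Zyx-207 held 66.7% in the parental line and between 72.9% and 79.2% in primary 7, primary 8, CTC 1 and CTC 6. CTC 3 and metastasis 3, which share a number in their titles, were alike in Zyx, and also held the highest shares of Itga3-202, at 21.5% and 14.9%, against 2.01% to 9.88% elsewhere.

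Parva-203 held 45.9% of Parva counts in metastasis 5, 27.5% in CTC 3, 24.6% in metastasis 3 and 20.4% in primary 5, and 0 in parental, CTC 1 and metastasis 7. Itgb4-202 held 95.9% of Itgb4 counts in the parental line and 1.27% in metastasis 5, where Itgb4-205 held 48%. Itgav-202 held 48.4% of Itgav counts in the parental line, 21.7% in CTC 6 and at most 6.18% in the other lines. Itgb1-202, annotated as subject to nonsense-mediated decay, held 30.7% to 53% of Itgb1 counts, so the Itgb1 level is not all of the coding transcript. Itga2, Itga6 and Itgb5 each came almost wholly from 1 transcript in every line, at no less than 99.9%, 99.3% and 93.3%.

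**Figure D5:**
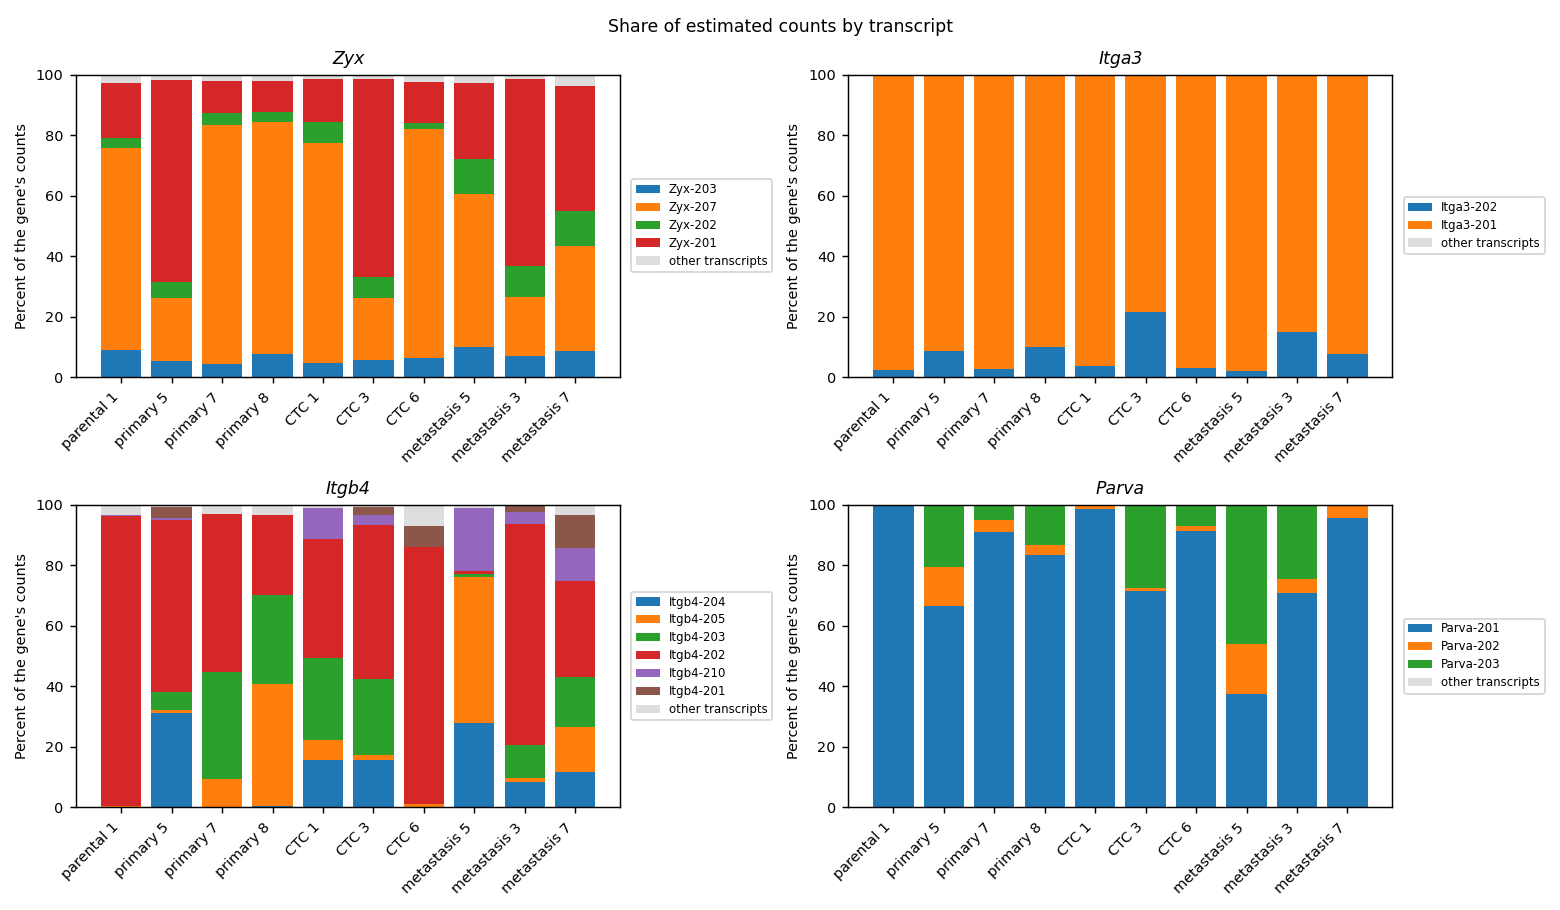
Share of the estimated counts of Zyx, Itga3, Itgb4 and Parva held by each transcript, in percent, in the 10 lines. Zyx-201 takes 61.9% to 66.7% in primary 5, CTC 3 and metastasis 3, and Itgb4-202 holds 95.9% in parental and 1.27% in metastasis 5.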

How the data were processed

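RNA was sequenced in 10 libraries as Illumina paired-end reads per the labels' protocols. The protocol names a TruSeq total RNA kit and the molecule label says polyA RNA, a conflict that the labels leave unresolved. The authors deposited tables of unscaled estimated counts, 1 for genes and 1 for transcripts. Per the submitters' processing notes, the tools were HISAT2 2.1.0, StringTie 2.0.3 and DESeq2 1.26.0 and the build was GRCm38. Because StringTie divides reads between overlapping transcripts, counts of overlapping genes and of isoforms are uncertain. Strand use and annotation release are not given in the sources used here. GENCODE M21 gave positions, overlaps and transcript lengths.

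Of 72544 entries in the gene table, 17126 are assembled transcripts without a gene name, with 19.7% to 22.8% of the counts of a library. They were left out of the tests, so a low level can mean that reads were counted under such an entry. Counts were rounded and tested with the quasi-likelihood test of edgeR 4.0.16 (R 4.3.3), in a joint fit of 4 groups with TMM factors and the default filterByExpr. Benjamini-Hochberg adjustment ran over 19936 genes, with a threshold of 0.05. The parental group has 1 library, assumed to vary like the others. The common biological coefficient of variation was 0.606. Each SE was obtained from the log2 change and its F statistic. TPM was computed from the deposited transcript counts. The script was tested on simulated data with known changes.

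Values in every line are given for each member at 5 CPM or more in any line, and the others by range. For each pathway list and comparison, at most the gene with the smallest p at a mean of 5 CPM or more is named, because none passed in edgeR. Col1a1 and Col1a2 are named besides for their low levels. The members and lists were chosen with earlier results of these data known. A gene of the list of further adaptors is not reported here. Alternatives were RLE factors, library totals, no filter and a filter of 1 CPM in 3 libraries, DESeq2 1.42.0, limma-voom (limma 3.58.1), all entries, the line number as a block, only the groups compared, and leaving out each derived line.

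Titles give the same number to primary 5 and metastasis 5, to primary 7 and metastasis 7, and to CTC 3 and metastasis 3, with no meaning stated for it. Across genes, deviations from the group means correlated at 0.319, 0.12 and 0.406 in these pairs (median -0.0493 in pairs of unlike number). Since all 3 exceed 0.1, the block treats the numbers as pairs, on the values alone. Pairs of unlike number exceeded 0.1 as well, so this cut does not show that equal numbers mark pairs. CTC 6 with metastasis 7 (0.506) and primary 8 with CTC 6 (0.43) correlated more than all 3. Others, such as primary 8 with metastasis 7 (0.274) and primary 5 with CTC 3 (0.222), exceeded the 0.12 of primary 7 and metastasis 7.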

Additional observations from a re-analysis of the deposited data

How the results depend on the processing

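Among the settings tried, DESeq2 was the one that called members: 1 in metastasis against primary, 1 in CTC against primary and 1 in the test of any difference (Itgb6 in each), and 3 in derived against parental lines (Itgb2, Itgb3 and Itgb7). Each of the other settings that could be fitted called 0 members in these comparisons, and leaving out each derived line in turn gave 0 to 0. With the line number as a replicate block, fixed in edgeR on the 9 derived lines or random in limma-voom (correlation 0.484), 0 members were called, as without it. The fixed block leaves 1 residual degree of freedom and cannot give derived against parental. In it, Itga2b in metastasis minus CTC came to 0.00 and Cd9 in CTC minus primary to -0.13 (1.05 without the block). By construction, the block's value for metastasis against CTC is the difference of the single pair CTC 3 and metastasis 3. No number is common to CTC and primary lines, so the block reaches that comparison through the same pair and the pairs 5 and 7 of primary and metastasis lines.

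Of 535 values of the 29 named changes under the alternatives, 525 kept direction and side of the threshold, 8 passed it (all by DESeq2) and 2 changed sign. None of the 29 had passed the threshold in the main fit, so staying on that side says little about how firm a change is. In metastasis minus primary, the unadjusted p was under 0.05 in 19 of 19 alternatives for Itga2 and Itgb6. It was so in 13 for Itgb5 and in 10 for Itga2b. Other scalings moved the median of all genes by at most 0.09 in log2. Summing entries of the same name was not run, because no name is repeated, and a fit of the compared groups alone was not made for derived against parental. Members under about 1 CPM, such as Itgb6 in primary 5 and in the CTC and metastasis lines, rest on few counts.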
